A study of Mus musculus with 52 samples.

Results

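The 5 genes described here, Fgf15, Slc10a2, Fabp6, Slc51a and Slc51b, carry the handling of bile acids by absorptive cells of the ileum and its report to the liver. They were chosen by symbol from the 24116 genes of an RNA-seq table of mouse intestinal organoids, and each symbol matched 1 row. Organoids are epithelial cultures that grow from single intestinal cells and form stem, absorptive and secretory cells. The 13 groups were organoids treated with 10 µM all-trans retinoic acid (atRA, a ligand of the retinoic acid receptors) and collected on days 1, 3, 4 and 5, organoids treated with 5 µM of an antagonist of the retinoid X receptors (RXRi) and collected on the same days, and organoids given the solvent DMSO and collected on days 0, 1, 3, 4 and 5. The drugs were given on day 0 and again on day 3. All groups came from wild type C57BL/6 mice of 8 weeks and were kept in a medium with EGF, Noggin and R-spondin (ENR), to which Wnt3a-conditioned medium, a ROCK inhibitor and a GSK3B inhibitor were added until day 3. Each group had 2 organoid cultures from male littermates, each purified and sequenced in duplicate, and the medium recipe in the labels names no bile acid. Every test therefore rests on 2 cultures per group, and duplicates were averaged first.

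In the ileum, the sodium-dependent transporter encoded by Slc10a2 takes bile acids up from the lumen, Fabp6 binds them inside the cell, and the heteromeric transporter made of the Slc51a and Slc51b products passes them to the blood. Bile acids in the cell activate the nuclear receptor FXR (gene Nr1h4), which acts as a partner of a retinoid X receptor and raises Fabp6, Slc51a, Slc51b and Fgf15. Fgf15 is a hormone that travels to the liver and lowers bile acid synthesis there. FXR also induces Nr0b2 (SHP), a repressor that in mice lowers Slc10a2.

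Promoters are shown because FXR elements are built from hexamers spelled AGGTCA, and 2 of the members carry such a hexamer near their starts and 1 a looser form of it. RefSeq promoters (GRCm38.p6) were matched for 4 of the 5 members, Fabp6, Slc51a, Slc51b and Slc10a2. Fgf15 had no entry. The 250 bases before each start are printed 5′ to 3′ on the strand of the gene, which is the minus strand for these 3 (chr11:43601563-43601812, chr16:32487880-32488129 and chr9:65422774-65423023), and capitals mark the letters found.
Fabp6: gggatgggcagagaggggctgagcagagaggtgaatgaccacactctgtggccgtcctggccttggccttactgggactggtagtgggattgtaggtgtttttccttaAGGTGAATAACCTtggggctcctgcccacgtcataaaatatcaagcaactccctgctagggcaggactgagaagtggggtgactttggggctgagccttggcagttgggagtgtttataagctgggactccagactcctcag
Slc51a: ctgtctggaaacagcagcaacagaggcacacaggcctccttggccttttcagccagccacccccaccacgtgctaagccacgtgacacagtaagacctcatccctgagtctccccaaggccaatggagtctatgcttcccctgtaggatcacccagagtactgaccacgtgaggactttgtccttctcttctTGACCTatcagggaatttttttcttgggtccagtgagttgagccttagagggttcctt
Slc51b: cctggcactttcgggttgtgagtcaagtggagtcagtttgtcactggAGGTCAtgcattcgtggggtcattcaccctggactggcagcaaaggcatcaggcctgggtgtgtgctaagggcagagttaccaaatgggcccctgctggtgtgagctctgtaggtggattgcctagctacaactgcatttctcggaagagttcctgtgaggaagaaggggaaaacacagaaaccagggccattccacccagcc
The motifs were searched on both strands of the 300 bases from 250 before to 50 after the start, in the members and in all 32851 promoters of the table. The inverted repeat AGGTCANTGACCT stood in 3 promoters of the table (0.00913%) and in none of the members. An open form, AGGTNANTNACCT, stood in 7 promoters (0.0213%), among them Fabp6, where it reads AGGTGAATAACCT from base -142 to base -130. This form was written with the FXR element of Fabp6 known from the literature, so the match is no independent finding. A single AGGTCA stood at -203 to -198 of Slc51b and, on the other strand as TGACCT, at -58 to -53 of Slc51a, and 5340 promoters (16.3%) held 1. The direct repeats AGGTCANAGGTCA and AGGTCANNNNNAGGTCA stood in 13 and 3 promoters and in no member, and Slc10a2 had none of these motifs. No match overlapped another in the members.

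The 51 libraries used held 12895667 to 26206028 reads in genes (median 19686970), with 14387 to 15800 genes above 0. The second library of DMSO culture 1 on day 1 held 12443 reads and was left out, so that group rests on 3 libraries. Levels are in RPKM, reads scaled by gene length and by library depth, and tests used limma on log2(RPKM + 1) over all groups at once. A gene is called when its Benjamini-Hochberg adjusted p, over the 12443 genes tested, lies under 0.05, and ± after a log2 fold change is its standard error. Genes needed at least 1 RPKM in 4 libraries. All 5 members passed, Fabp6 only through the atRA groups of days 3 to 5, in which alone it reached 1 RPKM (11 of 51 libraries). Of cells other than epithelium, the 6 fibroblast markers summed to at most 0.0743 RPKM and the 6 immune markers to at most 7.65 RPKM in any library. The labels call the organoids intestinal and name no segment. Levels are given for 8 of the genes listed for the ileum, of which Cubn and Onecut3 stayed at or under 0.667 RPKM in every group mean. The highest group means of the other 6 were 9.80 RPKM for Nts, 12.8 RPKM for Osr2, 17.6 RPKM for Amn, 50.5 RPKM for Pyy, 102 RPKM for Clec2h and 105 RPKM for Guca2a. For the 10 genes listed for the duodenum and jejunum, the highest group means ranged from 2.36 RPKM for Lct to 23013 RPKM for Fabp1, and Gata4 stood at 37.5 to 78.6 RPKM throughout. Genes of both lists were present, no segment was assigned, and "ileal" here describes where the 5 genes act in the animal.

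Fgf15, the hormone (Entrez gene 14170, chr7:144896532-144900953), was higher with atRA than with DMSO on every day, and lower with RXRi on day 3. On day 1 its libraries read 30.8, 25, 29.8 and 32.5 RPKM with atRA, 0.731, 0.905, 0.937 and 1.14 RPKM with RXRi, and 4.36, 3.82 and 4.33 RPKM with DMSO. On day 3 they read 60.1, 60.0, 66.6 and 68.0 RPKM with atRA, 1.89, 1.26, 1.35 and 1.38 RPKM with RXRi, and 9.57, 10.3, 11.5 and 12.1 RPKM with DMSO. On day 4 they read 33.1, 28.8, 25.1 and 23.8 RPKM with atRA, 1.28, 1.26, 1.27 and 0.795 RPKM with RXRi, and 4.77, 3.89, 2.76 and 2.51 RPKM with DMSO. On these 3 days every atRA library lay above every DMSO library, and every RXRi library below. The log2 fold change with atRA was 2.54 ± 0.66 on day 1 (adjusted p 0.0434), 2.45 ± 0.66 on day 3 (0.0276), 2.70 ± 0.66 on day 4 (0.0158) and 3.02 ± 0.66 on day 5 (0.0122). With RXRi it was -2.26 ± 0.66 on day 3 (adjusted p 0.0113), and -1.44 ± 0.66 on day 1 (0.143), -1.04 ± 0.66 on day 4 (0.192) and -0.94 ± 0.66 on day 5 (0.227), which were not called.

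In the DMSO course Fgf15 was the 1 member called between days 0 and 1, although with a pseudocount of 0.1 Slc51a (0.81, adjusted p 0.0247) and Slc51b (-1.20, 0.0144) were called as well. It read 0.355, 0.377, 0.435 and 0.0940 RPKM on day 0, and its step to day 1 was 1.99 ± 0.66 (adjusted p 0.0158), at a time when 25.6% of all genes tested were called higher. It was highest under DMSO on day 3 (10.9 ± 1.34 RPKM, SD, n = 2), and the steps to day 3 (1.18 ± 0.66, adjusted p 0.294) and to day 4 (-1.43 ± 0.66, 0.0792) were not called. The standard error of Fgf15 is large because 1 spread is estimated over all groups, the split groups of day 5 among them. The atRA calls of days 1, 3 and 4 were each lost when any culture of either group was left out (adjusted p 0.193 to 0.254, 0.105 to 0.137 and 0.0598 to 0.0915), although the fold changes stayed between 2.33 and 2.97. The step from day 0 to day 1 was also lost without any 1 culture (adjusted p 0.0516 to 0.0643) and with limma-voom (0.158), and was 1.39 (adjusted p 0.107) with the shallow library kept. Also lost was the RXRi call of day 3 without culture 2 of the DMSO group (0.0618) or of the RXRi group (0.0551).

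On day 5 the cultures of Fgf15 came apart. With atRA, culture 1 read 91.6 and 116 RPKM and culture 2 read 9.12 and 11.4 RPKM. With RXRi, culture 1 read 1.60 and 1.45 RPKM and culture 2 read 0.789 and 1.07 RPKM. With DMSO, culture 1 read 6.57 and 7.0 RPKM and culture 2 read 0.901 and 1.78 RPKM. Culture 1 was thus 10.1-fold above culture 2 with atRA and 5.06-fold with DMSO. With these treatments duplicates lay closer together than the cultures did, although those of culture 2 with DMSO were 0.901 and 1.78 RPKM. With atRA, 3 of 12443 genes, Fgf15 among them, differed at least as much between the cultures (0.0241%), and with DMSO 25 genes did (0.201%). One day earlier the ratio of the cultures was 1.26 with atRA and 1.64 with DMSO. Within each culture the atRA libraries still lay above the DMSO libraries, by 3.74 in culture 1 and 2.29 in culture 2 on the log2 scale. The day 5 value of 57.2 ± 66.3 RPKM with atRA (SD, n = 2), against 4.06 ± 3.85 RPKM with DMSO, therefore describes neither culture. Without culture 1 of the atRA group the fold change was 1.41 (adjusted p 0.0533), and without culture 2 of the DMSO group 2.14 (0.0680).

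**Figure D1:**
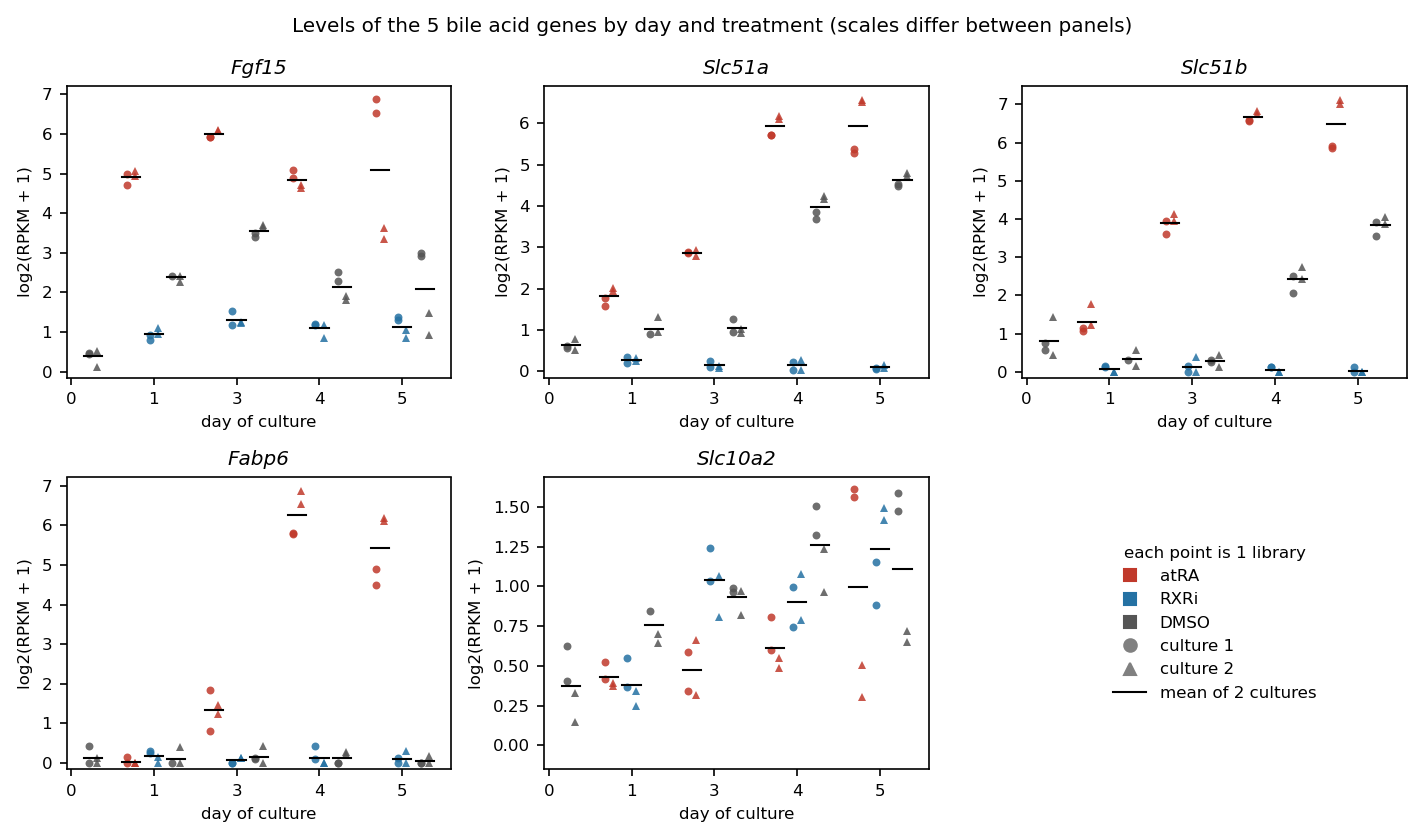
Each point is 1 library, with log2(RPKM + 1) on the vertical axis and the day of culture on the horizontal axis, and the bars are means over the 2 cultures. Fabp6 stays near 0 outside the atRA groups of days 3 to 5. The Slc51 genes rise under DMSO on days 4 and 5 and lie higher with atRA. On day 5 Fgf15 and Slc10a2 are higher in culture 1 with atRA and with DMSO. Fabp6 and the Slc51 genes are higher in culture 2 with atRA on that day.

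Slc10a2, the uptake transporter (Entrez gene 20494, chr8:5083219-5105287), was weakly expressed and did not follow the other members. Its libraries ranged from 0.104 RPKM on day 0 to 2.06 RPKM with atRA on day 5, and 14 of 51 reached 1 RPKM. On day 4 it read 0.746, 0.513, 0.464 and 0.398 RPKM with atRA, 0.674, 0.995, 1.11 and 0.730 RPKM with RXRi, and 1.5, 1.83, 0.955 and 1.36 RPKM with DMSO. The atRA libraries lay below all DMSO libraries on that day, as on days 1 and 3, and the fold change of day 4 was -0.65 ± 0.29 (adjusted p 0.149, 95% interval -1.26 to -0.04). limma called it in 0 of 28 comparisons, with 2 at an unadjusted p under 0.05, and limma-voom on recovered reads called 0. On day 5 it split like Fgf15, with 2.06 and 1.96 RPKM in culture 1 and 0.422 and 0.234 RPKM in culture 2 with atRA, and 2.00 and 1.77 RPKM against 0.571 and 0.644 RPKM with DMSO. With RXRi culture 2 was the higher one, at 1.67 and 1.81 RPKM against 0.841 and 1.22 RPKM.

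Fabp6, the ileal bile acid-binding protein (Entrez gene 16204, chr11:43596040-43601562), was found in quantity only with atRA and only late. On day 3 it read 0.754, 2.57, 1.37 and 1.76 RPKM with atRA, 2 reads in all with RXRi, and at most 0.350 RPKM with DMSO. On day 4 it read 55.3, 53.5, 115 and 91.9 RPKM with atRA, at most 0.343 RPKM with RXRi, and at most 0.206 RPKM with DMSO. On day 5 it read 21.6, 28.9, 71.7 and 67.5 RPKM with atRA, at most 0.241 RPKM with RXRi, and 0.137 RPKM in 1 library and 0 in the other 3 with DMSO. The atRA libraries lay above all others on each of these days, those of RXRi and DMSO overlapped, and on day 1 the atRA libraries held a single read of the gene. The reads behind day 4 were 3515 with atRA and 4 with DMSO, a ratio per depth of 798 (95% interval 311 to 2930, counting error only). On day 5 they were 1927 and 1, a ratio of 1354 (243 to 53501). Fabp6 entered the tests only through the atRA groups in which it is high, so its fold changes and adjusted p are descriptions of those groups and no independent test. The log2 fold change, which understates low genes, was 1.17 ± 0.32 on day 3 (adjusted p 0.0274), 6.12 ± 0.32 on day 4 (2.35e-09) and 5.37 ± 0.32 on day 5 (1.52e-08). The atRA effect grew by 4.95 ± 0.45 between days 3 and 4 (adjusted p 3.48e-05), with 0.129% of all genes called higher, a share from which nothing is read for Fabp6. The day 3 call was lost without any 1 culture (adjusted p 0.116 to 0.136) and with limma-voom (0.231). limma-voom also gave no call for the growth of the effect (6.43, adjusted p 0.473).

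Within atRA, culture 2 held more Fabp6 than culture 1, 1.90-fold on day 4 and 2.76-fold on day 5. This is the opposite of Fgf15, which on day 5 was higher in culture 1. Slc51a and Slc51b went with Fabp6 there, at 2.36-fold and 2.31-fold more in culture 2. The 12 enterocyte markers, genes of absorptive cells, summed to 5164 RPKM in culture 1 and 12227 RPKM in culture 2 with atRA on day 5. With DMSO they summed to 6190 RPKM in culture 1 and 6893 RPKM in culture 2. The 7 enteroendocrine markers summed to 658 RPKM in culture 1 and 287 RPKM in culture 2 with atRA, and to 241 and 242 RPKM with DMSO. The part of these markers in the split was not tested.

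Slc51a (Entrez gene 106407, chr16:32475578-32487879) and Slc51b (330962, chr9:65412753-65422773), which encode the 2 subunits of the basolateral exporter, rose in the DMSO course itself between days 3 and 4. On day 1 Slc51a read 2.01, 2.40, 3.08 and 2.88 RPKM with atRA, 0.153, 0.265, 0.199 and 0.242 RPKM with RXRi, and 0.875, 0.944 and 1.51 RPKM with DMSO, with no overlap between the treatments. On day 3 it read 6.32, 6.41, 5.88 and 6.67 RPKM with atRA, 0.196, 0.0833, 0.0658 and 0.0992 RPKM with RXRi, and 0.921, 1.40, 0.896 and 1.04 RPKM with DMSO. On day 4 it read 51.7, 51.7, 71.7 and 67.8 RPKM with atRA, 0.164, 0.0284, 0.0265 and 0.213 RPKM with RXRi, and 11.9, 13.4, 17.0 and 18.1 RPKM with DMSO. On day 5 it read 40.9, 38.0, 91.5 and 94.7 RPKM with atRA, 0.0467, 0.0629, 0.109 and 0.0532 RPKM with RXRi, and 21.4, 22.4, 25.4 and 26.9 RPKM with DMSO. The 3 treatments again did not overlap, with atRA highest and RXRi lowest. The fold change with atRA was 0.81 ± 0.26 on day 1 (adjusted p 0.117, not called), 1.83 ± 0.26 on day 3 (0.000129), 1.94 ± 0.26 on day 4 (0.000127) and 1.31 ± 0.26 on day 5 (0.00562). The day 5 call was lost without culture 1 of the DMSO group (1.18, adjusted p 0.0799).

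Slc51b was called higher with atRA on all 4 days, Slc51a on days 3, 4 and 5; the difference between the genes was not tested. On day 1 it read 1.10, 1.23, 2.44 and 1.32 RPKM with atRA, 0.0967, 0.120, 0 and 0 RPKM with RXRi, and 0.231, 0.111 and 0.489 RPKM with DMSO. On day 3 it read 14.5, 11.1, 14.5 and 16.5 RPKM with atRA, at most 0.312 RPKM with RXRi, and 0.188, 0.237, 0.0945 and 0.366 RPKM with DMSO. On day 4 it read 95.5, 93.3, 113 and 107 RPKM with atRA, at most 0.0897 RPKM with RXRi, and 3.19, 4.67, 5.72 and 4.42 RPKM with DMSO. The atRA libraries lay above all DMSO libraries on each day. On day 5 it read 58.8, 56.8, 129 and 139 RPKM with atRA, at most 0.0995 RPKM with RXRi, and 14.2, 10.7, 13.7 and 15.6 RPKM with DMSO. The fold change with atRA was 0.97 ± 0.25 on day 1 (adjusted p 0.0398), 3.63 ± 0.25 on day 3 (6.89e-08), 4.24 ± 0.25 on day 4 (9.84e-09) and 2.63 ± 0.25 on day 5 (5.47e-06). The effect grew by 2.65 ± 0.36 between days 1 and 3 (adjusted p 0.00115), a change in which 0.538% of all genes were called higher, and limma-voom did not call this growth (3.54, adjusted p 0.944). The day 1 call was lost without any 1 culture (adjusted p 0.0772 to 0.378) and with limma-voom (0.657).

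Both subunits are needed for transport, and the ratio of their levels is given for the groups in which both had more than 20 reads. Slc51b over Slc51a was 0.528 and 0.630 in the 2 cultures with atRA on day 1 and 2.01 and 2.47 with atRA on day 3. On day 4 it was 1.82 and 1.57 with atRA, and 0.310 and 0.289 with DMSO. On day 5 it was 1.47 and 1.44 with atRA, and 0.568 and 0.560 with DMSO. Slc51b was thus the more abundant transcript per length with atRA from day 3 on, and Slc51a the more abundant one with DMSO on days 4 and 5. In the starting organoids of day 0 the ratio was 1.15 and 1.76, from 28 reads of Slc51b.

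**Figure D2:**
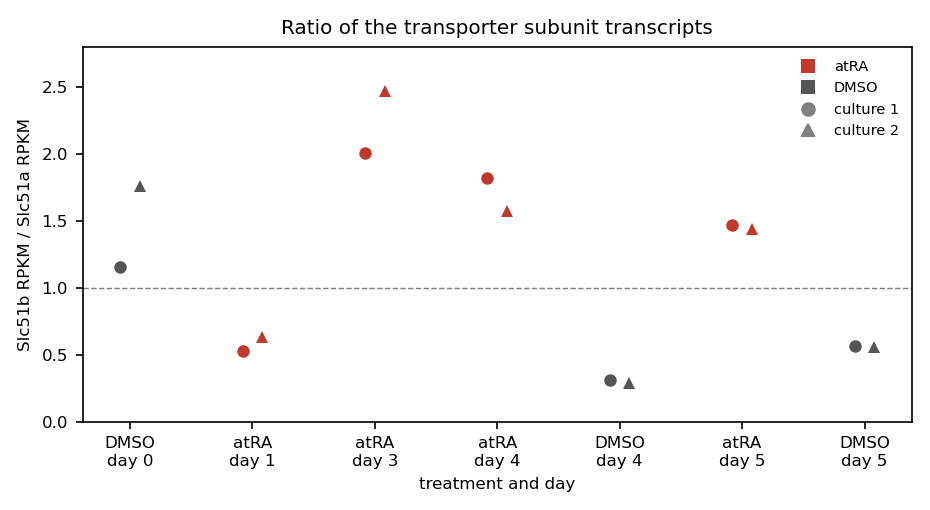
The vertical axis is the RPKM of Slc51b divided by that of Slc51a, the horizontal axis gives treatment and day, and each point is 1 culture. On days 4 and 5 both atRA cultures lie above 1 and both DMSO cultures below it.

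With RXRi both exporter genes stayed near 0 on the days on which they rose under DMSO. Slc51a fell by 0.89 ± 0.26 on the log2 scale on day 3 (adjusted p 0.0107), with fold changes of -3.85 ± 0.26 on day 4 (1.37e-09) and -4.55 ± 0.26 on day 5 (1.04e-10). The day 3 call was lost without culture 1 of the DMSO group (adjusted p 0.0616) or culture 2 of the RXRi group (0.0569). Slc51b had fold changes of -2.38 ± 0.25 on day 4 (4.15e-07) and -3.82 ± 0.25 on day 5 (7.10e-10), and on day 3, when it was low in both groups, -0.15 ± 0.25 (0.662). On day 4 Slc51a had 16 reads with RXRi and 1871 with DMSO, a ratio per depth of 0.00717 (95% interval 0.00409 to 0.0117, counting error only), and Slc51b had 2 and 178 reads, a ratio of 0.00942 (0.00113 to 0.0345). The RXRi effect deepened between days 3 and 4 by -2.96 ± 0.37 for Slc51a (adjusted p 2.91e-05) and -2.23 ± 0.36 for Slc51b (0.000330), where 12.2% of all genes were called lower, and limma-voom called neither (0.119 and 0.108). On day 1 the fold change of Slc51a was -0.74 ± 0.26 (adjusted p 0.0516), which passed with the culture as a replicate block (0.0248).

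Read over the set, atRA raised 2 of the 5 members on day 1, when 1.93% of all genes tested were called higher, namely Slc51b and Fgf15. It raised 4 of 5, all but Slc10a2, on day 3 (background 4.32%), on day 4 (3.58%) and on day 5 (2.14%). RXRi lowered 0 of 5 on day 1 (background 9.93%), with 2 at an unadjusted p under 0.05 by limma and 0 called by limma-voom. It lowered Slc51a and Fgf15 on day 3 (background 25.4%) and Slc51a and Slc51b on day 4 (37%) and day 5 (35.1%), so 2 of 5 is near the share of all genes. Fabp6 had only 1 to 6 reads in each DMSO group of days 1 to 5. Since Fabp6 entered the tests through its atRA groups, these counts and medians over the set are descriptions. The median fold change with atRA over the 5 members was 0.81, 1.83, 2.70 and 2.63 on days 1, 3, 4 and 5, against -0.01, -0.04, -0.12 and 0.00 over all genes tested.

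**Figure D3:**
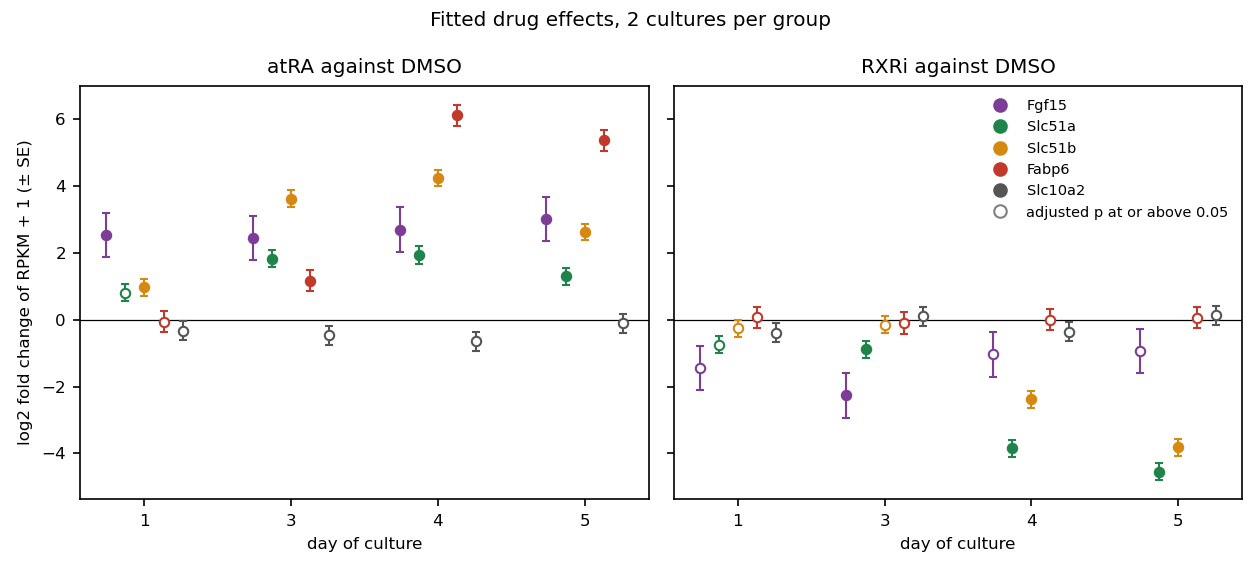
Points are fitted log2 fold changes of RPKM + 1 against DMSO with their standard errors, by day of culture, with atRA on the left and RXRi on the right, and open points have an adjusted p of 0.05 or more. With atRA the Fabp6 effect stands at 6.12 on day 4 while Slc10a2 stays between -0.65 and -0.11, and with RXRi the Slc51 genes fall below -2 on days 4 and 5.

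Set against RXRi directly, which leaves out the shared DMSO libraries, atRA was higher for Slc51a, Slc51b and Fgf15 on day 1, where 12.2% of all genes were called higher. It was higher for these and for Fabp6 on day 3 (background 25.1%), day 4 (30.9%) and day 5 (37.1%). On day 4 the differences were 6.62 ± 0.25 for Slc51b, 6.11 ± 0.32 for Fabp6, 5.79 ± 0.26 for Slc51a and 3.73 ± 0.66 for Fgf15, with adjusted p of 0.000121 or less. Fabp6 entered the tests only through its atRA groups of days 3 to 5. Its calls against RXRi describe those groups and are no independent test. Slc10a2 differed by -0.29 ± 0.29 (95% interval -0.90 to 0.32).

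In the DMSO course, the called rises of the exporter genes fell after day 3 and that of Fgf15 between days 0 and 1. The difference in timing between the genes was not tested. Under DMSO, 0 of 5 members were called between days 1 and 3, by limma and by limma-voom, with 0 at an unadjusted p under 0.05 and 6.19% of all genes called higher. Between days 3 and 4 the medium change and the second dosing fell together, and Slc51a rose by 2.95 ± 0.26 (adjusted p 1.78e-07) and Slc51b by 2.16 ± 0.25 (3.47e-06) under DMSO, with a background of 20.5%. Between days 4 and 5 Slc51b rose by 1.41 ± 0.25 (adjusted p 0.00467), with a background of 2.11%, a call lost with limma-voom (0.139) and without culture 1 of day 4 (0.0508). Within atRA, Slc51b (2.60 ± 0.25), Fabp6 (1.30 ± 0.32) and Slc51a (1.03 ± 0.26) rose between days 1 and 3, with 8.17% of genes called higher. The Fabp6 call was lost without culture 2 of day 1 (adjusted p 0.0607) or culture 1 of day 3 (0.0503), and the Slc51a call without culture 1 of day 1 (0.104) or of day 3 (0.0626) and with the shallow library kept (0.0566). The same 3 rose between days 3 and 4, Fabp6 by 4.91 ± 0.32, Slc51a by 3.06 ± 0.26 and Slc51b by 2.77 ± 0.25, with 17.9% of genes called higher. Both rises of Fabp6 within atRA are descriptions and no independent test, since it entered the tests only through these atRA groups.

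In the order of the 13 group means, atRA on days 4 and 5 held the first 2 places for Fabp6 (79.0 and 47.4 RPKM), Slc51b (102 and 95.8 RPKM) and, in the other order, Slc51a (60.8 and 66.2 RPKM), and the ranges of the cultures overlapped between these 2 groups for each gene. For Fgf15 the 4 atRA groups led (27.7 to 63.7 RPKM), and their neighbours overlapped. Between neighbours in the order the cultures did not overlap in 9 of 12 pairs for Slc51a, 7 for Slc51b, 4 for Fgf15, 2 for Fabp6 and 2 for Slc10a2. The share over all genes was not computed, so nothing is read from these counts. Some pairs rest on few reads, such as Slc51a with RXRi on days 4 and 5 (16 and 9 reads). In bulk RNA, a group with fewer absorptive cells and a group with less of these transcripts per cell cannot be told apart.

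The enterocyte markers moved with the exporter genes in part. Their sum ranged from 493 to 589 RPKM with atRA against 385 to 434 RPKM with DMSO on day 1, and from 936 to 1008 against 353 to 402 RPKM on day 3. It ranged from 5709 to 6873 against 2189 to 2578 RPKM on day 4. On day 5 the groups overlapped, at 4996 to 12399 with atRA and 6159 to 7051 RPKM with DMSO. Of the 12 markers, 2, 9, 8 and 1 were called higher with atRA on days 1, 3, 4 and 5, and 1 was called lower on day 5. Over all genes tested, atRA gave 1.93%, 4.32%, 3.58% and 2.14% called higher and 1.53%, 4.36%, 7.35% and 2.89% called lower on these days. RXRi gave 10.5%, 18.4%, 22% and 28.7% called higher and 9.93%, 25.4%, 37% and 35.1% called lower. With median-of-ratios scaling the split of all genes with atRA on day 4 was 665 higher and 370 lower, in place of 446 and 915. In culture 1 on day 5 the sum was lower with atRA (5164 RPKM) than with DMSO (6190 RPKM), while Slc51b stood at 57.8 RPKM with atRA and 12.4 RPKM with DMSO and Fabp6 at 25.2 and 0 RPKM. In culture 2 on day 5 the sum was higher with atRA (12227 RPKM) than with DMSO (6893 RPKM). There Slc51b stood at 134 RPKM with atRA and 14.6 RPKM with DMSO, and Fabp6 at 69.6 and 0.0686 RPKM. With RXRi the sum was 315 to 388 RPKM on day 4 and 251 to 274 RPKM on day 5, and all 12 markers were called lower on both days, against 37% and 35.1% of all genes. None of the 12 was at 0 in every library of a DMSO or atRA group. The part of this in the RXRi result was not tested.

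Nr1h4, which encodes FXR itself, was expressed in every group, and its level did not follow the exporter genes under RXRi. On day 4 it read 23.6, 22.9, 25.5 and 26.4 RPKM with atRA, 16.7, 17.6, 16.4 and 20.3 RPKM with RXRi, and 14.8, 18.2, 14.8 and 16.4 RPKM with DMSO. Its fold change with atRA was called on days 1 (0.49), 3 (1.23) and 4 (0.59) and not on day 5 (0.42), and with RXRi it was called higher on days 1 (0.38) and 3 (0.78) and not on days 4 (0.14) and 5 (-0.21). Nr0b2, the SHP repressor that FXR induces, was highest with atRA late. It averaged 0.594 RPKM with DMSO on day 0 and 0.286 RPKM with atRA on day 3. It read 2.16, 1.92, 2.28 and 3.42 RPKM with atRA on day 4 and 1.68, 1.23, 4.66 and 5.02 RPKM on day 5. On days 4 and 5 it was 0 in all 8 RXRi libraries and at most 0.382 RPKM with DMSO. Its fold changes with atRA were 1.54 ± 0.24 on day 4 (adjusted p 0.000564) and 1.66 ± 0.24 on day 5 (0.000439). Nr0b2 reached 1 RPKM only in the atRA groups of days 4 and 5 and entered the tests through them. Its fold changes and adjusted p are therefore descriptions of those groups and no independent test.

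**Figure D4:**
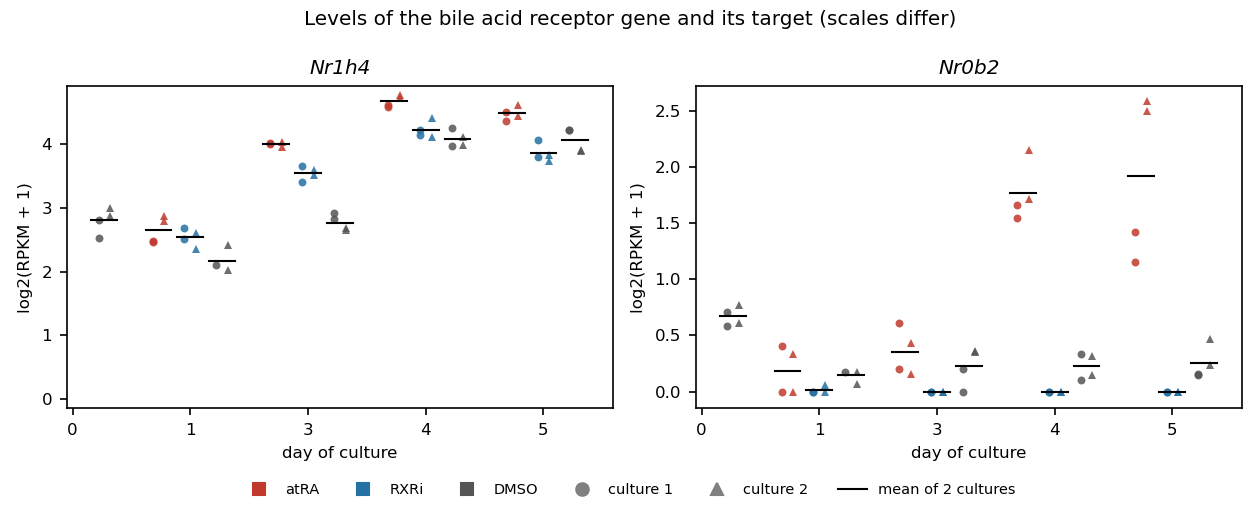
Each point is 1 library of Nr1h4 (left) or Nr0b2 (right), with log2(RPKM + 1) against the day of culture, and bars are means of the 2 cultures. On day 4 Nr1h4 lies between 14.8 and 26.4 RPKM under all treatments, while Nr0b2 is above 1 RPKM only in the atRA libraries of days 4 and 5.

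Of 10 genes for bile acid sensing receptors and partners 8 were tested, and 4 were called higher with atRA on day 4 (3.58% of all genes): Nr0b2, Nr1h4, Nr1i2 (the xenobiotic receptor PXR, 0.53 ± 0.11) and Vdr (the vitamin D receptor, 0.34 ± 0.10). Nr0b2 is counted here although it entered the tests only through its atRA groups. With RXRi 6 of the 8 were called lower on day 4 (37% of all genes), Vdr by -5.34 ± 0.10 and Nr1i2 by -4.30 ± 0.11 among them. The membrane receptor gene Gpbar1 and Rxrg stayed at or under 0.0736 RPKM in the group means.

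Of 16 other genes listed as FXR targets 11 were tested, and with atRA 5, 7, 6 and 5 were called higher and 1, 1, 2 and 1 lower on days 1, 3, 4 and 5, where 1.93% to 4.32% of all genes were called higher and 1.53% to 7.35% lower. On day 4 these included Apoc2, an apolipoprotein (2.12 ± 0.27), Ang, a secreted ribonuclease (1.78 ± 0.15), Nr0b2, and Abcg8, which pairs with Abcg5 as a sterol exporter (1.24 ± 0.19). The call of Nr0b2 is again no independent test, since its atRA groups brought it into the tests. Abcg8 averaged 82.7 ± 21.7 RPKM with atRA and 34.0 ± 5.59 RPKM with DMSO on that day. With RXRi 0, 1, 1 and 1 were called higher and 7, 9, 9 and 9 lower, where 9.93%, 25.4%, 37% and 35.1% of all genes were called lower. On day 4 the lower ones included Abcg5 (-5.35 ± 0.23), Apoc2 (-5.30 ± 0.27) and Abcg8 (-4.92 ± 0.19). The median fold change of the list was 0.72, 0.77, 1.01 and 0.67 with atRA and -0.89, -1.28, -1.02 and -0.73 with RXRi on the 4 days, where all genes on day 4 had -0.12 with atRA and -0.13 with RXRi.

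Of 12 other bile acid and organic anion transporters 8 were tested, and the shares of all genes on day 4 were 3.58% higher and 7.35% lower with atRA, and 22% higher and 37% lower with RXRi. With atRA on day 4, Abcg2, an apical exporter (0.87 ± 0.12), and Slco2a1 (0.44 ± 0.14) were called higher, and Abcc4 (-0.67 ± 0.20) lower. With RXRi on day 4, Slco2b1 (-4.07 ± 0.23) and the apical exporter gene Abcc2 (-3.65 ± 0.23) were among 4 called lower, and Slco2a1, a prostaglandin transporter (2.91 ± 0.14), was 1 of 2 called higher. Of 9 bile acid synthesis enzymes 4 were tested, and limma called none with atRA on any day. Cyp7a1, the rate-limiting enzyme of the liver, and Cyp8b1 were at 0 in every group mean. Cyp27a1, which starts the alternative pathway, was higher with RXRi on day 4 (1.66 ± 0.18), at 15.5 ± 0.756 RPKM with RXRi and 4.27 ± 0.107 RPKM with DMSO. Of the genes for receiving FGF15, Fgfr4 stood at 1.81 to 16.5 RPKM and its co-receptor gene Klb at or under 0.953 RPKM in the group means. Malrd1, which in mice raises FGF15 production, was higher with atRA on day 4 (0.78 ± 0.15) and lower with RXRi (-1.91 ± 0.15).

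Of the 10 genes listed for the ileum 7 were tested, and with atRA 1, 3, 0 and 1 were called higher on days 1, 3, 4 and 5, where 1.93%, 4.32%, 3.58% and 2.14% of all genes were. The lower calls of the ileum list are not given here. Of the 10 listed for the duodenum and jejunum, all were tested, and 2, 3, 2 and 1 were called higher and 0, 0, 1 and 3 lower, where 1.53%, 4.36%, 7.35% and 2.89% of all genes were lower. On day 4 Fabp1, the liver-type fatty acid-binding protein (3.27 ± 0.36), was among those higher, and the iron reductase gene Cybrd1 was lower (-1.94 ± 0.53). Of 11 other intracellular lipid-binding protein genes, relatives of Fabp6 among them, 8 were tested and 3 were called higher and 2 lower with atRA on day 4 (3.58% and 7.35% of all genes). Fabp2 rose by 2.32 ± 0.33 and Fabp5 fell by 1.25 ± 0.13 on the log2 scale. Of 15 transcription factors of absorptive cells, all tested, Ppara (1.52 ± 0.15) and Isx (0.89 ± 0.14) were called higher and Pparg (-1.05 ± 0.23) lower with atRA on day 4, and Isx (-6.48 ± 0.14) and Cdx1 (-4.65 ± 0.22) were among 9 called lower with RXRi (37% of all genes).

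Likeness of pattern is given as Pearson's r over the 26 culture means of log2(RPKM + 1), as a description, since the points share treatment and day. Among the members, Slc51a and Slc51b were closest (r = 0.96), Fabp6 followed Slc51b (0.86) more than Slc51a (0.76), Fgf15 had 0.54 to 0.64 with these 3, and Slc10a2 had -0.11 to 0.07 with every other member. Over all genes tested, the closest to Slc51a were Fcgrt (0.98), Gpd1 (0.98), Fmo5 (0.98), Apoa1 (0.98) and Sar1b (0.97). The closest to Slc51b were Slc25a34 (0.98), G6pc (0.97), Hadha (0.97), Eci3 (0.97) and Acaa1b (0.96). Those closest to Fabp6 were Acot12 (0.97), Gsdmc4 (0.96), Acot3 (0.95), Cyp4a32 (0.95) and Cyp4a31 (0.94), several of which have near copies with which reads can be shared, and the rank correlation of Acot12 with Fabp6 was 0.31. For Fgf15 they were Khdc1c (0.93), Khdc1a (0.92), Tlr2 (0.90), Noxa1 (0.87) and Car12 (0.87). For Slc10a2 they were Ptprr (0.88), Pgm1 (0.83), Slc30a4 (0.78), Bloc1s6 (0.77) and Magi3 (0.77).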

How the data were processed

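Poly(A) RNA-seq libraries (TruSeq) were made from 52 organoid samples. The deposited table holds RPKM values, which the authors computed per gene; per the submitters' processing notes bcl2fastq 2.17, STAR 2.5.2b and the mm10 build were used, while for the counting tool, annotation and strand setting the entry is "not given in the sources used here". Reads per library were recovered by choosing, for each gene, the unit of which its values are whole multiples. Of the values above 0, 100.0% then lay within 0.01 of a whole read. The choice of unit favours this share, so it is no independent check. Duplicates of a culture were averaged as log2(RPKM + 1), and 26 culture means of 13 groups were fitted with limma 3.58.1 (trend, robust; R 4.3.3; 13 residual degrees of freedom), for genes with at least 1 RPKM in 4 libraries, with two-sided tests adjusted over 12443 genes. A pseudocount of 1 understates the change of low genes. The count test planned for reads was replaced by limma-voom on recovered reads, which was chosen after seeing the data. Other alternatives were a pseudocount of 0.1, no filter (19708 genes), another scaling, the shallow library kept, the culture as a replicate block, and each culture left out. The labels number the 2 cultures alike in all groups, and the deviations of same-numbered cultures correlated at 0.149 in the median of 78 group pairs (-0.317 to 0.759). Members and gene lists were chosen with earlier results of these data known. Named genes are the members, Nr1h4, Nr0b2, up to 4 per list by smallest p, and the 5 most alike to each member. Some other listed genes, such as Cubn, Gpbar1, Klb and Cyp7a1, are named outside this rule for their levels. Intervals on reads cover counting error only. The fit was tested on simulated data.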

Additional observations from a re-analysis of the deposited data

Results flagged for a closer look

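Of 60 groups of 4 libraries of the members, 6 held a library far from the other 3. The cutoff is set for 1 in 20 with 4 independent values, which duplicates of 2 cultures are not. The count is therefore not compared with chance. Those flagged were Fabp6 at 0.117 RPKM with atRA on day 1 and at 0.137 RPKM with DMSO on day 5, each with the other 3 libraries at 0, and Slc51b at 0.0995 RPKM with RXRi on day 5, where the other 3 were also at 0. A single read beside libraries at 0 is always flagged. The others were Slc51b at 2.44 RPKM with atRA on day 1, Fgf15 at 0.795 RPKM with RXRi on day 4, and Slc10a2 at 0.765 RPKM with DMSO on day 3.

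A drug effect differed between days for 3 members, by limma's test of the difference itself. The atRA effect on Slc51b was higher by 2.65 on day 3 than on day 1, and that on Fabp6 by 4.95 on day 4 than on day 3 (log2 scale). The RXRi effect changed by -2.96 for Slc51a and by -2.23 for Slc51b between days 3 and 4. limma-voom called none of these changes. For Fabp6 the test is not independent, since its atRA groups brought it into the tests.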

How the results depend on the processing

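The sign changed in 67 alternative fits over 34 of 140 results of the members, none of them called in the reported setting. In 1 of these the opposite sign was called: Slc51a within atRA from day 4 to day 5 (0.01) was -0.60 without culture 2 of day 5 (adjusted p 0.0348) and 0.62 without culture 1, the lowest and highest values with a culture left out. With the culture as a replicate block, 2 results were newly called, Slc51a with RXRi on day 1 (adjusted p 0.0248) and the further RXRi change of Slc51b from day 4 to day 5 (0.0279), and no other call changed. limma-voom gave 0 calls, in place of 4, for the change of a drug effect and 2, in place of 4, for the DMSO course. Leaving out 1 culture gave 4 to 12 calls for the change of a drug effect, and 4 to 14, in place of 6, for the course within a drug; the highest values of both came without culture 2 of the atRA group of day 5. Without that culture Fabp6 (-1.55), Slc51b (-0.81) and Slc51a were lower and Fgf15 (1.87) and Slc10a2 (0.98) higher with atRA on day 5 than on day 4. Those values rest on culture 1 alone for atRA on day 5. The counterpart without culture 1 is given only for Slc51a, where the sign was the opposite. With the shallow library kept, the calls in the pathway lists came to 39, in place of 95, for atRA against DMSO, 26, in place of 70, for the change of a drug effect, and 64, in place of 118, for the course within a drug. The cause was not tested. Among the members the calls for atRA against DMSO came to 10, in place of 14: Fgf15 on days 3 and 4 (adjusted p 0.0860 and 0.0639), Fabp6 on day 3 (0.0693) and Slc51b on day 1 (0.0713) were lost. With a pseudocount of 0.1, Slc51a (-1.85) and Slc51b (-1.24) with RXRi and Slc51a with atRA (1.24) were called on day 1, as were Slc51a (0.81) and Slc51b (-1.20) between days 0 and 1 under DMSO, and Fgf15 with atRA on day 1 was not (0.0637). Without the filter, Fgf15 with atRA was not called on days 1 and 3 (adjusted p 0.0705 and 0.0508). limma-voom also gave no call for Fgf15 with atRA on days 1 and 5 (0.224 and 0.0851) or with RXRi on day 3 (0.0679), or for Fabp6 and Slc51a between days 1 and 3 within atRA (0.0993 and 0.0813). Without culture 2 of the DMSO group of day 5, Fgf15 with RXRi was called on day 5 (-1.82, adjusted p 0.0496). The planned fits with edgeR and DESeq2 were not run, since the values are RPKM. The library of 12443 reads sets a limit for DMSO on day 1, and few reads set one for Fabp6 outside atRA and for Slc51b with RXRi.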
